A study of Mus musculus with 4 samples.

Results

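Vdac1, Vdac2 and Vdac3 encode the voltage-dependent anion channels, the pores through which metabolites cross the outer membrane of mitochondria. They were represented by 4 printed cDNA clones out of 16471 with a usable value, or 3 genes of 8106. Members were all clones whose one annotated gene symbol was Vdac1, Vdac2 or Vdac3. Two-colour arrays had been hybridised with ventricle and septum RNA of 6 male mice, and on every array the RNA of 1 high-salt heart competed with that of 1 low-salt heart. Every mouse was a wild-type backcross of generation N5 to N6 between 129Ola and C57BL/6J, of the 1-renin genotype, aged 12 to 13 weeks, with 1 kidney removed. All ate food with 0.5 mg sodium per g and received deoxycorticosterone acetate (DOCA), a mineralocorticoid. For 5 weeks the 3 high-salt mice drank 1% NaCl, while the 3 low-salt mice drank tap water. Both groups thus carried the hormone and the nephrectomy, and only the salt in the water separated their treatments. The high-salt hearts weighed 131, 128 and 120 mg in pairs 1 to 3, against 109, 107 and 108 mg for the low-salt hearts.

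Each VDAC is a barrel of beta strands that lets ATP, ADP, phosphate, creatine phosphate, pyruvate and small ions pass between cytosol and mitochondrion. VDAC1 is usually the most abundant isoform in heart, docks hexokinase and sits at contacts with the sarcoplasmic reticulum where calcium enters mitochondria. VDAC2 is known for holding the apoptosis effector Bak at the membrane, and VDAC3 is the least abundant and least understood of the family.

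The values were deposited log ratios of the dyes, 1 per clone and array, taken here in base 2, so that -1 would be a halving. There were 4 arrays and 3 pairs of mice. Arrays 1 and 2 held pairs 1 and 2 with Cy3 on the high-salt RNA, array 3 held pair 3 with Cy5 on it, and array 4 held pair 2 again with the dyes exchanged. The values of arrays 2 and 4 were averaged into 1 value for pair 2, which leaves 3 replicates. Ratios are read as high over low salt, after the wording of the array titles. That reading is likely but not settled, because the sources used here do not say whether the ratios of exchanged arrays had been turned. Over the 16471 clones, arrays of one dye orientation correlated at 0.57 and 0.43, and arrays of opposite orientation at -0.37 to -0.07, with arrays 2 and 4 of the same mice at -0.07. A gene-specific dye term and salt therefore cannot be told apart by these arrays unless the direction is known, and member values are given below under both readings. Ratios carry no level, so neither the abundance of the 3 channels nor the labelled tissue could be checked against the level of its markers. Precision is limited by how few arrays there were.

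Vdac1 stood well below 0 on every array, whereas Vdac2 and Vdac3 lay on both sides of 0. The gene value of Vdac1, the mean of its 2 clones, was a log2 ratio of -1.13 ± 0.25 (SD, n = 3 pairs), which would be 2.18-fold lower in high salt. Vdac2 had a log2 ratio of 0.070 ± 0.20 and Vdac3 one of -0.19 ± 0.42 over the same 3 pairs. Of the 3 genes, 1 was below 0 on all 4 arrays, against 7.75% of all genes tested, and of the 4 clones 2 were, against 6.76% of all clones. The members were chosen by this same ratio, since Vdac1 stood out in it, so these values are a description with no test attached. The limma fit over all genes called 0 of 8106 (0%) at an adjusted p under 0.05, and 441 (5.44%) at an unadjusted p under 0.05. In whole ventricle, fewer cells of a type and less RNA per cell cannot be told apart.

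**Figure D1:**
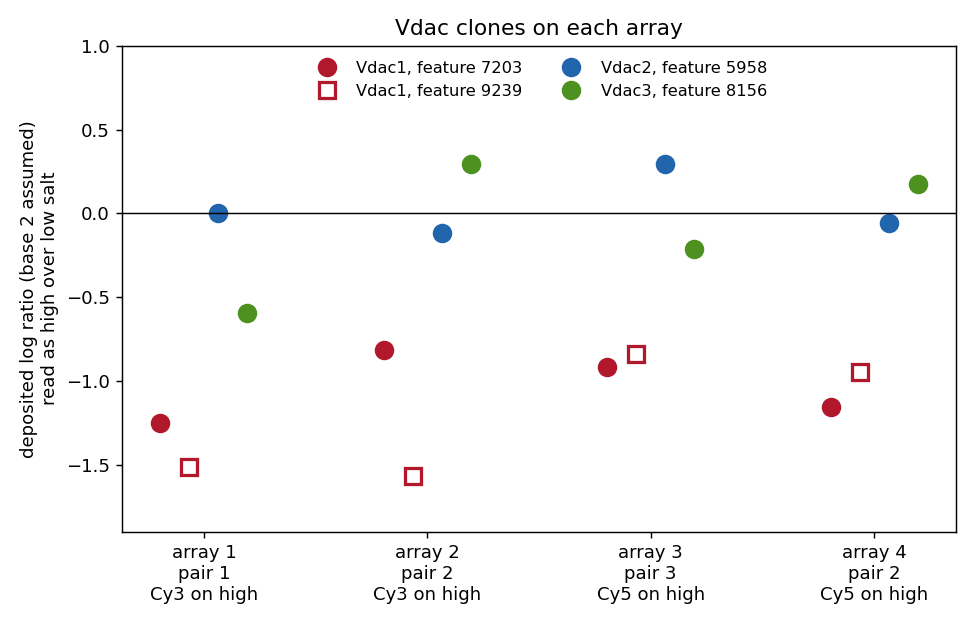
Deposited log ratio (base 2 assumed, read as high over low salt) of each Vdac clone on each of the 4 arrays, 1 point per clone and array, with no averaging. Both Vdac1 clones lie between -1.57 and -0.81 on every array, and the Vdac2 and Vdac3 clones between -0.59 and 0.30.

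The Vdac1 clones were printed as features 7203 and 9239, both annotated with mouse gene ID 22333. Feature 7203 had log2 ratios of -1.25, -0.81, -0.92 and -1.15 on arrays 1 to 4. Its mean was -1.05 ± 0.18 (SD, n = 3 pairs), and its lowest and its highest value both came from arrays with Cy3 on high salt. Feature 9239 had log2 ratios of -1.51, -1.57, -0.84 and -0.95 on arrays 1 to 4, with a mean of -1.20 ± 0.34 over the 3 pairs. For this clone both arrays with Cy3 on high salt lay lower than both arrays with Cy5 on it. With so few arrays per orientation such an order sets no clone apart, and the share of all clones that show it was not counted.

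The clones agreed in sign and size but not in how they varied between arrays. Feature 7203 minus feature 9239 was a difference of 0.26 on array 1, 0.76 on array 2, -0.07 on array 3 and -0.21 on array 4. Over pairs this difference was 0.15 ± 0.20 (SD, n = 3), smaller than its own spread. Among 1870 genes with exactly 2 clones the median gap between clone means was 0.094, and 30.4% of them had a larger gap than the 0.15 of Vdac1. The clones belonged to print blocks 14 and 17, counting blocks by position in the feature order. Clone medians in those blocks lay between -0.0062 and 0.0094 on the 4 arrays. How the values were normalized is not stated, and centring by block would by itself put such medians near 0. An effect of print position on the Vdac1 values was not tested.

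Against the other clones of the same array, Vdac1 was less extreme on array 3. On array 1, 46 of 16471 clones lay below feature 7203 (0.279%), on array 2 184 (1.12%), on array 3 412 (2.50%) and on array 4 20 (0.121%). For feature 9239 the corresponding counts were 27 (0.164%), 6 (0.0364%), 501 (3.04%) and 40 (0.243%). The spread of all clones differed between arrays, with a scaled median absolute deviation of 0.15, 0.22, 0.21 and 0.15 on arrays 1 to 4. As a gene mean over pairs, Vdac1 ranked eleventh from the bottom, with 0.123% of genes lower. A mean at or below -1 was held by 12 genes (0.148%), and 9 of these were below 0 on every array.

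Vdac1 was read in pair 2 on exchanged dyes, which gives the repeatability of the same RNA if the ratios are read as deposited. With arrays 1 and 2 turned, Vdac1 would have opposite signs on arrays 2 and 4. Feature 7203 was 0.34 lower on array 4 than on array 2, and feature 9239 was 0.62 higher. The median size of that gap over all clones was 0.20, and 31.6% of clones had a larger gap than feature 7203 and 14.1% than feature 9239. At the gene level these opposite shifts cancelled in part, with log2 ratios of -1.19 on array 2 and -1.05 on array 4. By pair the Vdac1 gene value was -1.38, -1.12 and -0.88 in pairs 1 to 3, and leaving out each pair in turn gave means between -1.25 and -1.0.

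The reading of the dyes decided the Vdac1 value. With arrays 1 and 2 turned in sign, its mean was 0.19 ± 1.14 (SD, n = 3 pairs), with pairs at 1.38, 0.07 and -0.88. Under that reading 28.0% of all genes had a larger mean in size, against 0.222% as deposited. The average of both dye orientations was -1.13 for Vdac1, against an SD of 0.18 over all genes. The difference between orientations, arrays 3 and 4 minus arrays 1 and 2, was 0.32 for Vdac1, against an SD of 0.47 over all genes. Of the clones, feature 7203 had an orientation difference of -0.00050 and feature 9239 one of 0.65, and 13.6% of clones exceeded the latter in size.

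**Figure D2:**
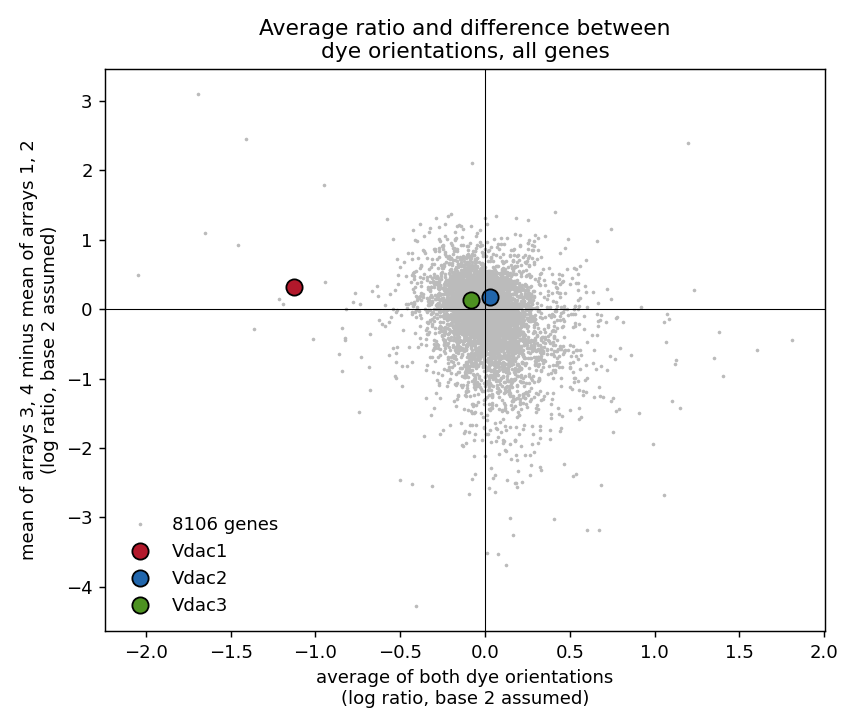
Each point is a gene; the horizontal axis is the average of its log ratio over both dye orientations, and the vertical axis is the mean of arrays 3 and 4 minus the mean of arrays 1 and 2 (both base 2 assumed). Vdac1 lies at -1.13 and 0.32, to the left of most of the 8106 genes but not at their edge. Vdac2 at 0.03 and 0.18 and Vdac3 at -0.08 and 0.13 lie inside the cloud.

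Vdac2, the isoform that binds Bak, had 1 clone, feature 5958 with gene ID 22334. Its log2 ratios were 0.0018, -0.12, 0.29 and -0.055 on arrays 1 to 4. Array 3 alone lay clearly above 0, and the mean became -0.04 when its pair 3 was left out. As deposited, the repeat of pair 2 on array 4 was 0.060 higher than on array 2, and 82.0% of clones had a larger gap there. Turning arrays 1 and 2 gave a mean of 0.11 ± 0.16 (SD, n = 3 pairs), so the Vdac2 mean stayed within its spread of 0 under both readings.

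Vdac3 also had 1 clone, feature 8156 with gene ID 22335. Its log2 ratios were -0.59, 0.30, -0.21 and 0.18 on arrays 1 to 4. The pairs disagreed in sign, with both arrays of pair 2 above 0 and pairs 1 and 3 below 0. The mean was 0.01 without pair 1 and -0.40 without pair 2. As deposited, the exchanged arrays of pair 2 differed by 0.12, less than the 0.20 median over clones. The high value of pair 2 was then read on both of its arrays. With arrays 1 and 2 turned, the arrays of pair 2 had opposite signs and pair 2 stood at -0.06. The turned mean was 0.11 ± 0.43 (SD, n = 3 pairs). The RefSeq gene table also lists a Vdac3 pseudogene, Vdac3-ps1, and whether the long cDNA clones bound RNA of other family members or of the pseudogene was not tested.

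Differences between the genes on one array do not depend on how that array was centred. Vdac1 minus Vdac2 was -1.38, -1.08, -1.17 and -0.995 on arrays 1 to 4, a mean difference of -1.20 ± 0.18 (SD, n = 3 pairs). Vdac1 minus Vdac3 was -0.79, -1.49, -0.66 and -1.23, a mean difference of -0.94 ± 0.37. Vdac1 was thus the lowest of the family on all 4 arrays as deposited. Vdac2 minus Vdac3 was 0.60, -0.41, 0.51 and -0.23, a mean difference of 0.26 ± 0.51, so those neighbours in the order did not differ beyond their spread. With arrays 1 and 2 turned, the mean difference was 0.084 ± 1.28 for Vdac1 minus Vdac2 and 0.085 ± 0.73 for Vdac1 minus Vdac3. Both differences were then smaller than their spread.

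As deposited, the means of other listed genes linked with VDAC or mitochondria lay nearer 0 than that of Vdac1. Of 97 listed genes 62 had a value, 43 with a mean below 0 and 19 above, and their median log2 ratio was -0.070, against -0.00026 over all 8106 genes, of which 50.1% were below 0. Under the turned reading, 32 of the 62 were below 0 and their median was -0.0021. None of the 62 passed limma's adjusted threshold in either direction, and at an unadjusted p under 0.05 there were 6 lower and 0 higher, where all genes gave 2.63% lower and 2.81% higher. The turned arrays gave 8 lower and 6 higher of the 62, where all genes gave 13.8% lower and 6.97% higher. Not one of the 62 had a mean as low as Vdac1, the nearest being Atp5b, a catalytic subunit of ATP synthase, at -0.43. Only 0.123% of all 8106 genes had a lower mean than Vdac1, and Vdac1 was chosen for its low ratio. The count therefore says nothing particular to the listed genes. On arrays 1 and 2 none of the 62 lay below the Vdac1 gene value, on array 3 there were 3 and on array 4 there was 1. Vdac2 had 49 of the 62 below its mean and Vdac3 had 15. When arrays 1 and 2 were turned, 50 of the 62 lay below Vdac1, and the medians of the 8 lists that make up the 62 ran from -0.035 to 0.087. A mean near 0 could also hide large values of opposite sign. Tomm40, the import pore, stood at 2.29, 1.02, -1.57 and -1.14 on arrays 1 to 4, with a mean of 0.22 ± 1.94 (SD, n = 3 pairs) as deposited and -1.65 turned.

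**Figure D3:**
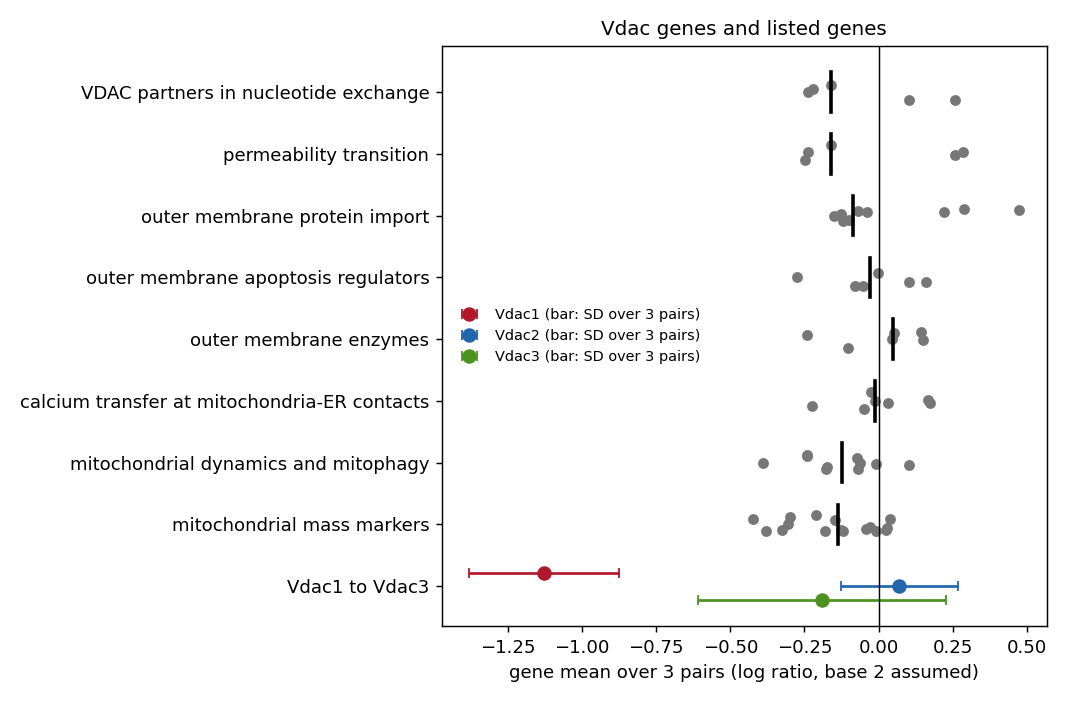
Mean log ratio over 3 pairs (base 2 assumed, read as high over low salt) of each listed gene as a grey point, with a black bar at the list median, and of Vdac1 to Vdac3 with the SD over pairs. The grey points run from -0.43 to 0.47, and Vdac1 at -1.13 lies to the left of all of them as deposited, or at 0.19 with arrays 1 and 2 turned.

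Genes listed as VDAC partners in the exchange of nucleotides and phosphate gave mixed values. Of 8 such genes listed 5 had a value, 3 lower and 2 higher, with a median log2 ratio of -0.16. Slc25a4, the adenine nucleotide carrier of heart and muscle, stood at -0.29, -0.38, -0.10 and -0.29 on arrays 1 to 4, below 0 on each, with a mean of -0.24 ± 0.13 (SD, n = 3 pairs). Slc25a5, the more widely expressed carrier of the same kind, had a mean of 0.26 ± 0.36. Hk2, the hexokinase that binds VDAC in muscle, had a mean of -0.22 ± 0.049, and Hk1, the other VDAC-binding hexokinase, one of 0.10 ± 0.69. On arrays 2 and 4, the same mice, Hk2 was at -0.49 and 0.0043, a gap that its small SD over pairs does not show. Turned, Hk2 was at 0.11 ± 0.24. Slc25a3, the phosphate carrier, had a mean of -0.16 ± 0.091. As deposited, each of these means was smaller in size than that of Vdac1, which only 0.222% of all genes exceeded in size. Once arrays 1 and 2 were turned, Hk1 at -0.53 and Slc25a5 at -0.23 were larger in size than Vdac1 at 0.19.

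Genes linked with the permeability transition, a sudden opening of the inner membrane in which VDAC was once held to be a component, included 3 of these carriers. Of 6 listed 5 had a value, 3 lower and 2 higher, with a median of -0.16. Atp5o, a stalk subunit of ATP synthase, averaged -0.25 ± 0.21 on the log2 scale (SD, n = 3 pairs). Tspo, an outer membrane protein that associates with VDAC, stood at 0.59, 0.80, -0.07 and -0.14 on arrays 1 to 4, opposite in sign between the dye orientations, with a mean of 0.28 ± 0.33.

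Genes of protein import at the outer membrane had 10 of 15 members with a value, 7 lower and 3 higher, and a median log2 ratio of -0.085. Tomm20, an import receptor, had a mean of -0.15 ± 0.11 (SD, n = 3 pairs) and Mtx3, a metaxin, one of -0.13 ± 0.061. Mtch1, an outer membrane carrier-like protein, had a mean of 0.47 ± 0.75 and Mtx1 one of 0.29 ± 0.58, both wide. With arrays 1 and 2 turned, Mtch1 was at -0.73, Mtx1 at -0.39 and the import median at -0.035. Apoptosis regulators of the outer membrane had 6 of 18 members with a value, 4 lower and 2 higher, and a median of -0.027. Turned, that median was 0.061. Mcl1, an anti-apoptotic Bcl-2 relative, had a mean of -0.28 ± 0.075 and Bik, a pro-apoptotic one, -0.08 ± 0.20. On arrays 2 and 4, the same mice, Mcl1 was at -0.56 and -0.012, a gap that its small SD does not show. Bok had a mean of 0.16 ± 0.15 and Bnip3l, a mitophagy receptor, 0.10 ± 0.22. Bak1, the partner of VDAC2, was not among the genes with a value.

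Outer membrane enzymes had 6 of 9 members with a value, 2 lower and 4 higher, and a median log2 ratio of 0.048. Cpt1b, the muscle carnitine palmitoyltransferase, had a mean of -0.24 ± 0.24 (SD, n = 3 pairs) and Cpt1a, its liver form, 0.15 ± 0.064. Cyb5b, an outer membrane cytochrome b5, was at -0.10 ± 0.39 and Gpam, an acyltransferase, at 0.14 ± 0.61. With arrays 1 and 2 turned, Cyb5b was at -0.34, Gpam at 0.50 and the enzyme median at 0.019. Genes of calcium transfer to mitochondria had 7 of 13 members with a value, 4 lower and 3 higher, and a median of -0.013. Hspa9, the chaperone that links VDAC1 to the inositol trisphosphate receptor, had a mean of -0.23 ± 0.47, and Itpr2, one such receptor, 0.17 ± 0.14. With arrays 1 and 2 turned, the list median was 0.035 and Hspa9 was at 0.49 ± 0.23. Micu2, a regulator of the calcium uniporter, was at -0.05 ± 0.087 and Vapb, a tether, at 0.17 ± 0.19. The means on this list thus lay on both sides of 0, as did those of all genes, of which 50.1% were below 0.

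Genes of mitochondrial fusion, fission and mitophagy had 10 of 14 members with a value, 9 lower and 1 higher, and a median log2 ratio of -0.12, or 0.087 with arrays 1 and 2 turned. Pink1, a mitophagy kinase, had a mean of -0.39 ± 0.30 (SD, n = 3 pairs) and Mfn1, a fusion GTPase, -0.24 ± 0.15. Mfn2 had a mean of 0.10 ± 0.29 and Dnm1l, the fission GTPase, -0.01 ± 0.15. Markers of mitochondrial mass had 16 of 17 members with a value, 13 lower and 3 higher, and a median of -0.14. Most of the 16 belong to the matrix or inner membrane, but Ppargc1a and Nrf1 are nuclear regulators. Under the turned reading, 9 of the 16 were lower and the median was -0.012. At the ends of that list Atp5b had a mean of -0.43 ± 0.32 and Sdha, of complex II, -0.38 ± 0.12, against 0.030 ± 0.046 for Tfam, a mitochondrial DNA packaging factor, and 0.04 ± 0.21 for the chaperonin Hspd1. Turned, Atp5b was at 0.37 and Sdha at 0.19.

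Markers of other cell types in ventricle were set beside the Vdac values. Of 13 fibroblast markers 10 had a value, 9 higher and 1 lower, with means spread widely from -0.041 to 1.04. Their median log2 ratio was 0.40, with pair medians from 0.34 to 0.47, or a median of -0.00070 with arrays 1 and 2 turned. Only 3 of 17 cardiomyocyte markers had a value, with a median of 0.054, running from -0.25 to 0.07, and at -0.029 without pair 3. Median log2 ratios were 0.065 over 6 endothelial, 0.11 over 4 smooth muscle and pericyte, -0.010 over 6 macrophage and leukocyte, -0.019 over 2 erythroid and 0.021 over 6 adipocyte markers. As deposited, S100a9, a neutrophil protein, was the only one of these markers with a lower mean than Vdac1, at -1.42. Turned, S100a9 was at -0.23 and the lowest marker was Cdh5, the endothelial cadherin, at -1.23, against 0.19 for Vdac1. The part of a changed cell makeup in the Vdac1 ratio was not tested.

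The genes with array values most like those of each channel were found by Euclidean distance over the 4 arrays among all 8106 genes, a measure that turning arrays does not alter. Nearest to Vdac1 were Zfp36, an mRNA decay factor, at a distance of 0.54, Irf1, a transcription factor, at 0.64, Ephb3, an ephrin receptor, at 0.67, Ppp1r15a, a stress-induced phosphatase subunit, at 0.89 and Mmp3, a matrix protease, at 0.93. No gene lay within 0.5 of Vdac1, whereas 84 did for Vdac3 and 4211 for Vdac2. Vdac1 was chosen for its low ratio on these same arrays, and few genes have values that far from 0. Its count and the low values of its neighbours are therefore no result. Nearest to Vdac2 were Tekt2, Adck2, Stx3, Smarca1 and Cdkn3, at distances from 0.027 to 0.083. Nearest to Vdac3 were Ralb, Lcp1, Manf, Cpsf6 and Noct, at distances from 0.20 to 0.28. None of these 15 genes was on the mitochondrial lists, which held only 62 of the 8106 genes. Their absence is therefore no result about the members.

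**Figure D4:**
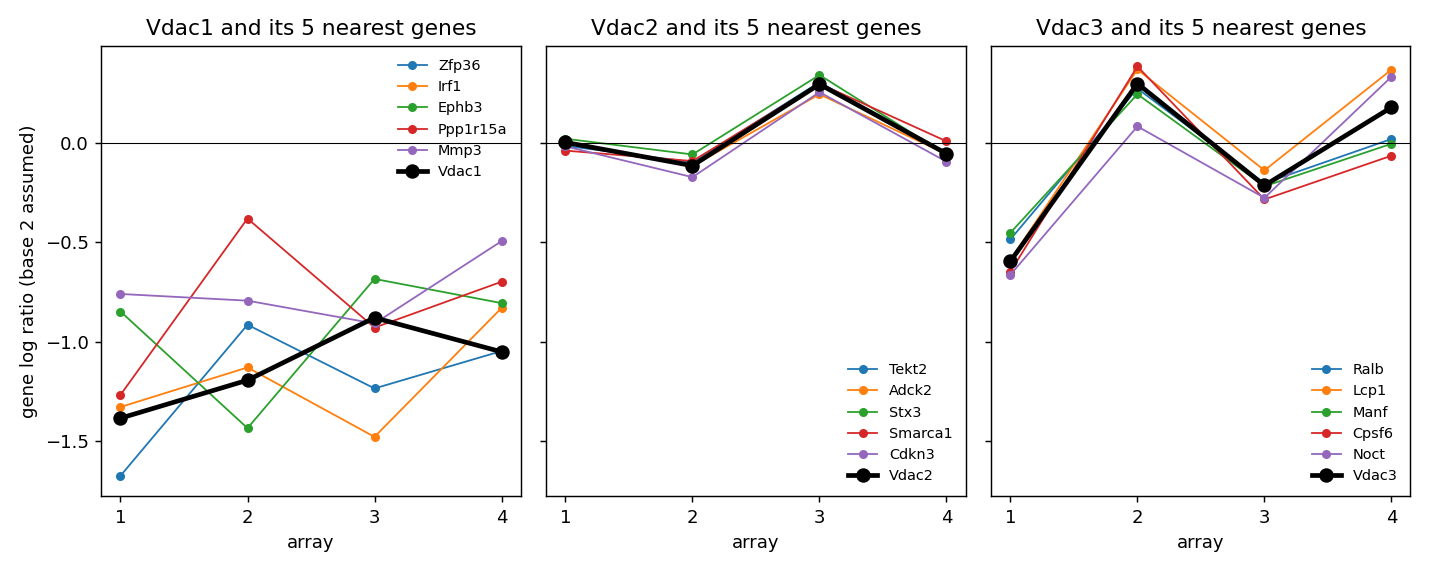
Gene log ratio (base 2 assumed) on arrays 1 to 4 for each Vdac gene in black and for its 5 nearest genes by distance over the arrays; lines only join the values of one gene, since arrays have no order. The neighbours of Vdac1 stay below 0 on all 4 arrays but do not follow its order of arrays, while those of Vdac2 lie within a distance of 0.083 of it. Those of Vdac3 all lie below 0 on arrays 1 and 3 and above 0 on array 2, and on array 4 they lie on both sides of 0.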

How the data were processed

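The authors deposited dye ratios as log values, taken here as log2, for 17664 features on 4 arrays, per the labels after Cy3 and Cy5 labelling by reverse transcription. How they corrected background, normalized and oriented them, and the base, is not stated in any source used. Values existed for 17207 features. Of these, 736 unnamed features at 23 print positions that recur in all 32 blocks were taken as controls and left out, which left 16471 clones. Symbols came from a platform annotation table. All 4 Vdac features matched the RefSeq gene table (GRCm38.p6) by gene ID. Clones of one symbol were averaged per gene (avereps). Arrays 2 and 4 were averaged, and an intercept was fitted to the pair values (R 4.3.3; limma 3.58.1 with lmFit and eBayes; Benjamini-Hochberg at 0.05); the fit was tested on simulated data. Named genes were all members, all listed nucleotide exchange and permeability transition genes, the 2 lowest and 2 highest of each other list, and the 5 nearest genes per member. S100a9, Cdh5 and Tomm40 were named after their values were seen. Members and lists were chosen with earlier results of these data known. The alternatives turned arrays 1 and 2, took pair 2 from 1 array, left out pairs, scaled or centred arrays, kept recurring features, added a dye covariate and took the median of clones.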

Additional observations from a re-analysis of the deposited data

How the results depend on the processing

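With arrays 1 and 2 turned, the Vdac1 mean log2 ratio was 0.19 in place of -1.13. Under the other alternatives run for it, it stayed between -1.25 and -1.0. The means of Vdac2 and Vdac3 moved by less than 1 SD under every alternative run. limma called 0 genes and 0 clones under each alternative run. At an unadjusted p under 0.05 it gave 441 genes, against 1683 with arrays 1 and 2 turned, 1188 with a dye covariate, 145 without pair 2 and 851 without pair 3. Of 120 values of list medians, which were added after seeing the data, 98 moved by less than 1 SD over pairs. In 6 cases the sign changed from a value beyond 1 SD. With arrays 1 and 2 turned these were the fibroblast (-0.00070), dynamics (0.087) and apoptosis (0.061) medians. The others were the apoptosis median without pair 1 (0.011) or pair 2 (0.0023) and the cardiomyocyte median without pair 3 (-0.029). When each pair was left out in turn, the apoptosis median ran from -0.0094 to 0.011 and the cardiomyocyte median from -0.029 to 0.057. The causes were not tested. The random block could not be fitted, since 1 repeated pair gives no correlation, and no clone with several symbols named a Vdac gene. There were only 3 pairs, 2 Vdac1 clones and 1 each for Vdac2 and Vdac3. Ratios alone were available, so level and signal over background could not be examined.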
